A study of Mus musculus with 4 samples.

Results

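Osteoclast-like cells of arthritic mouse ankle synovium were compared by origin: cells carrying CD45.1, the form of CD45 on the transplanted marrow, against cells carrying CD45.2, the form of the recipient mouse. Kept barcodes showed 300 genes or more, and no more than 10% of their UMIs (unique molecular identifiers, 1 per captured RNA molecule) were mitochondrial. The members were chosen by measured RNA and antibody levels: a barcode was called osteoclast-like when Acp5 and Ctsk together made up at least 2% of its gene UMIs and Atp6v0d2, Dcstamp, Ocstamp and Oscar together gave at least 3 UMIs. Of 5941 kept barcodes at Peak and 2828 at Plateau, 168 and 340 were osteoclast-like. Origin was read from log2((CD45.1+1)/(CD45.2+1)) of the antibody UMIs, with at least 1 called CD45.1 and at most -1 called CD45.2. That gave 129 CD45.1 and 36 CD45.2 barcodes at Peak and 289 and 42 at Plateau, 496 in all. The remaining 3 and 9 lay between and entered no origin comparison.

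CITE-seq reads RNA together with antibodies that carry DNA tags, so each cell has both measures. All mice were C57BL/6 (B6) chimeras, with CD45.1 marrow given to CD45.2 recipients whose ankle was kept out of the irradiation field. Arthritis was induced by transfer of K/BxN serum, whose autoantibodies bind in the joint, and Peak was taken on day 7 and Plateau on day 14. The labels give the sort as live CD45+ CD11b+ cells negative for CD177, Ly6C, Ly6G, CD64, SiglecF and MHC class II, though RNA and antibody counts of MHC class II were found in the sorted barcodes. Both titles carry the tag "Clo-lip", which is not explained in the labels and is shared by both origins. The Resolution title carries the tag too, and the Baseline title does not. How many mice stand behind a library is not stated in the labels. Since each stage has 1 library, p-values rest on sums of cells from 2 libraries and not on replicates, and intervals cover counting error only. The test by origin has 1 residual degree of freedom, which also holds any difference of the origin effect between the stages. For the spread of a gene, edgeR therefore draws on the spread of other genes as well.

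Osteoclasts are the cells that resorb bone, and they form by fusion of myeloid precursors under M-CSF, which acts through Csf1r, and RANK ligand, which acts through RANK. A mature osteoclast seals itself to bone through the integrin alpha-v beta-3, pumps acid through a proton pump in its ruffled border and digests the matrix with cathepsin K. In a chimera the CD45 form separates cells grown from donor marrow from those of the recipient, which can include both cells present in the joint before transplantation and cells from recipient marrow that survived. These 2 kinds of recipient cell cannot be told apart here.

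The tags that define the origin, and those of 2 surface proteins whose mean UMIs per barcode differed by origin in the same direction in both libraries, are given below 5′ to 3′ as the antibody list has them. The CD45.1 and CD45.2 tags, each 15 bases long, differ at 11 positions, which are in capitals. The tags of CD61, the integrin beta-3 chain, and FrB, folate receptor beta, are in lower case throughout.
CD45.1: cCTATGGaCtTGGAc
CD45.2: cACCGTCaTtCAACc
CD61: ttctttacccgcctg
FrB: ctcagatgcccttta

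The antibody counts separated the origins widely at the median. In CD45.1 osteoclast-like barcodes the median was 24 CD45.1 UMIs at Peak and 36 at Plateau, beside a median of 1 CD45.2 UMI in both. In CD45.2 barcodes the median was 122 CD45.2 UMIs at Peak and 138.5 at Plateau, beside medians of 2 and 1 CD45.1 UMIs. Near the cut, 11 osteoclast-like barcodes at Peak and 19 at Plateau had a log2 ratio between 1 and 2 in either direction, and the 19 had a median of 3938 gene UMIs. By this rule 1 antibody UMI can suffice. At Plateau the lowest count was 1 CD45.1 UMI among CD45.1 barcodes and 1 CD45.2 UMI among CD45.2 barcodes. At least 10 UMIs of both antibodies were found on 5 of 168 osteoclast-like barcodes at Peak and 9 of 340 at Plateau, which is 2.98% and 2.65%. Among other kept barcodes these shares were 2.11% and 1.49%. Peak and Plateau shared 5 barcode sequences, none of them osteoclast-like.

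**Figure D1:**
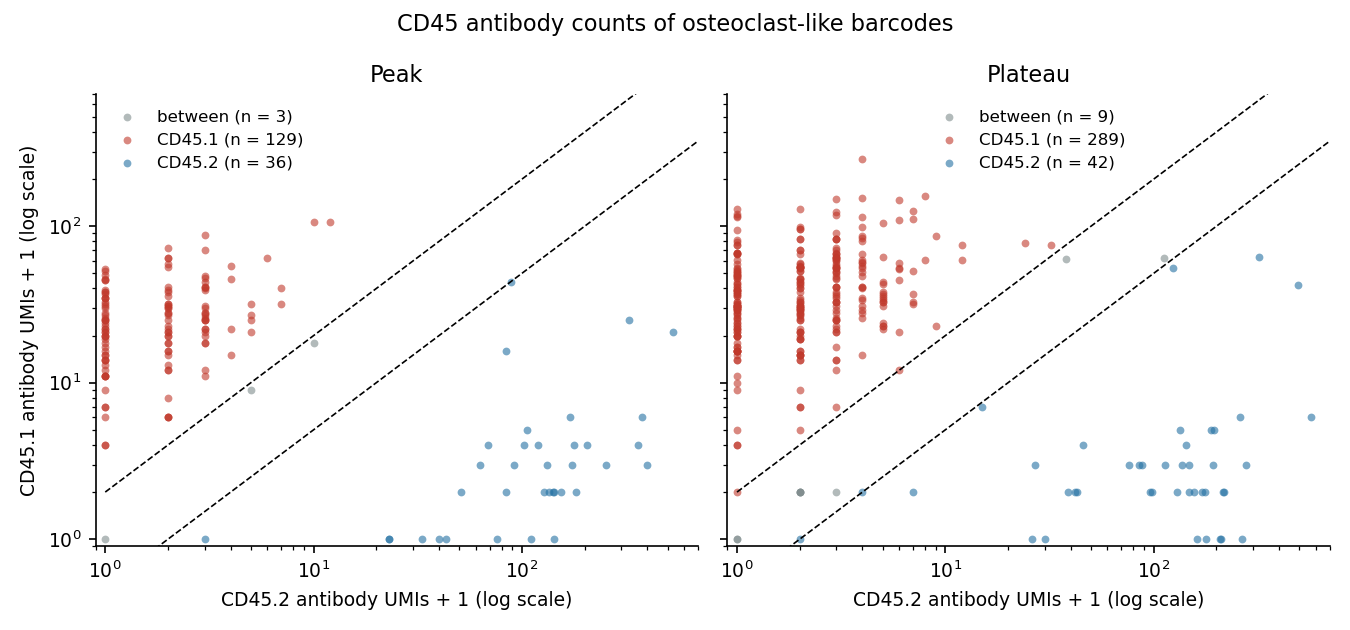
CD45.1 against CD45.2 antibody UMIs (each plus 1, log axes) of every osteoclast-like barcode at Peak and Plateau. Each point is a barcode, colored by origin, and dashed lines mark log2 ratios of 1 and -1. Most CD45.1 points (of 129 and 289 barcodes) and CD45.2 points (of 36 and 42) lie apart, with 3 and 9 barcodes between. Another 11 and 19 lie near the lines, at log2 ratios of 1 to 2 either way.

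Recipient cells made up more of the osteoclast-like than of the other sorted barcodes in both libraries, with intervals that lay apart at Peak and overlapped at Plateau. At Peak, CD45.2 made up 21.8% of the osteoclast-like barcodes with an origin (36 of 165, exact binomial 95% interval 15.8 to 28.9%) and 3.25% of the other kept barcodes (2.80 to 3.75%). At Plateau it made up 12.7% (42 of 331, 9.30 to 16.8%) and 8.53% (7.42 to 9.74%). Seen from the origin, 16.4% of all kept CD45.2 barcodes at Peak were osteoclast-like (36 of 219, 11.8 to 22%), against 2.31% of CD45.1 barcodes (129 of 5576, 1.94 to 2.74%). At Plateau the shares were 17.6% (42 of 239, 13 to 23.0%) and 12% (289 of 2402, 10.8 to 13.4%). The intervals of the 2 origins do not overlap at Peak and overlap at Plateau. With Acp5 and Ctsk at 4% or more the shares fell to 3.65% of CD45.2 (8 of 219, 1.59 to 7.07%) and 1.20% of CD45.1 barcodes (67 of 5576, 0.932 to 1.52%) at Peak, and to 8.79% (21 of 239, 5.52 to 13.1%) and 6.74% (162 of 2402, 5.77 to 7.82%) at Plateau. CD45.2 then made up 10.7% of the osteoclast-like barcodes at Peak (8 of 75, 4.72 to 19.9%) and 11.5% at Plateau (21 of 183, 7.25 to 17.0%). Atp6v0d2, Dcstamp, Ocstamp and Oscar at 6 UMIs or more together left 33 of 219 CD45.2 and 125 of 5576 CD45.1 barcodes at Peak. At Plateau 36 of 239 and 285 of 2402 were left. Between the libraries the CD45.1 share was 2.31% at Peak and 12% at Plateau, while the CD45.2 share was 16.4% and 17.6%. This stage difference has no replicate and was not tested.

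**Figure D2:**
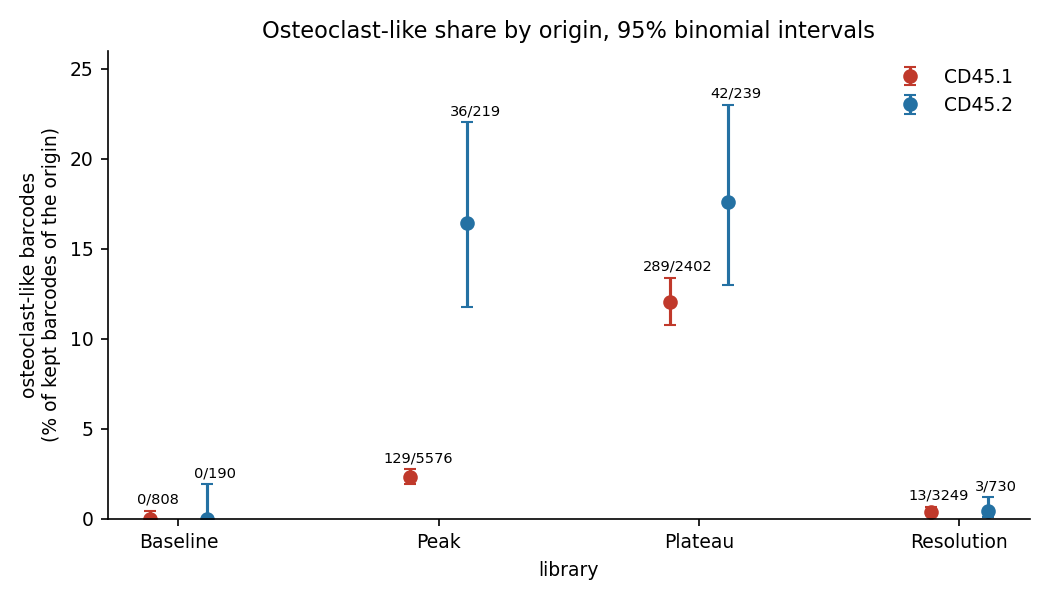
Osteoclast-like barcodes as a percentage of all kept barcodes of each origin, with exact 95% binomial intervals and the counts beside each point, in the 4 libraries of the study. At Peak the CD45.2 share (16.4%) lies far above the CD45.1 share (2.31%), at Plateau the 2 are 17.6% and 12%, and at baseline no barcode was osteoclast-like. Baseline alone lacks the "Clo-lip" tag in its title.

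The selecting genes were present in both origins, as the choice of cells requires. The 6 genes of the rule summed to 46301 CPM (a gene's UMIs scaled to a common total of gene UMIs) in CD45.1 and 34005 in CD45.2 osteoclast-like barcodes at Peak, and to 50739 and 46256 at Plateau. The median share of Acp5 and Ctsk was 4.17% in CD45.1 and 2.87% in CD45.2 barcodes at Peak, and 4.32% and 4.03% at Plateau. These genes chose the cells, so the values describe the cells chosen. Just above the threshold, at 2 to 3%, were 31 CD45.1 and 22 CD45.2 barcodes at Peak and 63 and 11 at Plateau. Just below it, at 1 to 2% with the other marker met, were 35 and 14 at Peak and 53 and 13 at Plateau. At 3 to 5 UMIs of the other rule genes were 4 CD45.1 and 3 CD45.2 osteoclast-like barcodes at Peak. At Plateau 14 barcodes lay in this range, 4 of them CD45.1 and 6 CD45.2, with a median of 927.5 gene UMIs. The median depth was 29199 gene UMIs in CD45.1 and 33144.5 in CD45.2 barcodes at Peak and 29034 and 31452 at Plateau. The summed totals were 3905663 and 1333301 UMIs at Peak and 8596758 and 1525298 at Plateau.

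Markers of fibroblasts, lymphocytes, granulocytes and other non-osteoclast lineages were low in both origins, while monocyte and macrophage lists were not. The 12 classical monocyte genes summed to 5123 CPM in CD45.1 and 5521 in CD45.2 osteoclast-like barcodes at Peak and 2815 and 2788 at Plateau, against 26444 and 14284 in the other barcodes at Peak. The 18 tissue macrophage genes summed to 779 and 770 CPM at Peak and 592 and 521 at Plateau, against 3255 and 8986 in the other barcodes at Peak. These sums join genes of opposite direction, so their closeness does not show equal macrophage RNA in the 2 origins. At Peak, Apoe had 548 CPM in CD45.1 and 75.8 in CD45.2 osteoclast-like barcodes, and Fxyd2 had 49.2 and 541. The part of monocytes and macrophages in the results was not tested. The 9 fibroblast genes summed to 27.1 CPM in CD45.1 and 16.5 in CD45.2 osteoclast-like barcodes at Peak and to 27.5 and 22.9 at Plateau, against 8192 and 18271 in the other CD45.2 barcodes. Summed neutrophil, T and NK cell, B cell, mast cell and basophil, dendritic cell, erythroid, endothelial and osteoblast lists lay between 0 and 18.8 CPM in every sum of osteoclast-like barcodes, and none of their genes had enough counts to be tested.

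The genes were tested with edgeR's quasi-likelihood test on the 4 sums of UMIs, CD45.1 and CD45.2 at Peak and at Plateau, with the library as a block. Of 5447 genes tested, 154 (2.83%) passed a Benjamini-Hochberg adjusted p of 0.05: 90 (1.65%) were higher in CD45.1 and 64 (1.17%) in CD45.2. The 90 include 1 rule gene, Oscar, which helped to choose the cells and is no finding. Within each library alone, with no test, 97 genes (1.78%) were at least 1.5-fold higher in CD45.1 in both libraries and 70 (1.29%) at least 1.5-fold higher in CD45.2, together 3.07%. At Peak alone these shares were 6.74% and 8.02%, and at Plateau alone 4.57% and 2.86%. All 154 called genes had the same sign in both libraries, a direction that the fit favours. The median log2 ratio of CD45.1 over CD45.2 over all genes tested was -0.06 at Peak and 0.00 at Plateau. Where barcodes had Acp5 and Ctsk at 2 to 4%, a range added after the load difference had been seen, 89 and 36 genes passed of 3901. At 4% or more only 8 and 21 CD45.2 barcodes remained and 2 and 1 genes passed of 1995. DESeq2 called 31 and 20 genes, all of them among the 154.

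**Figure D3:**
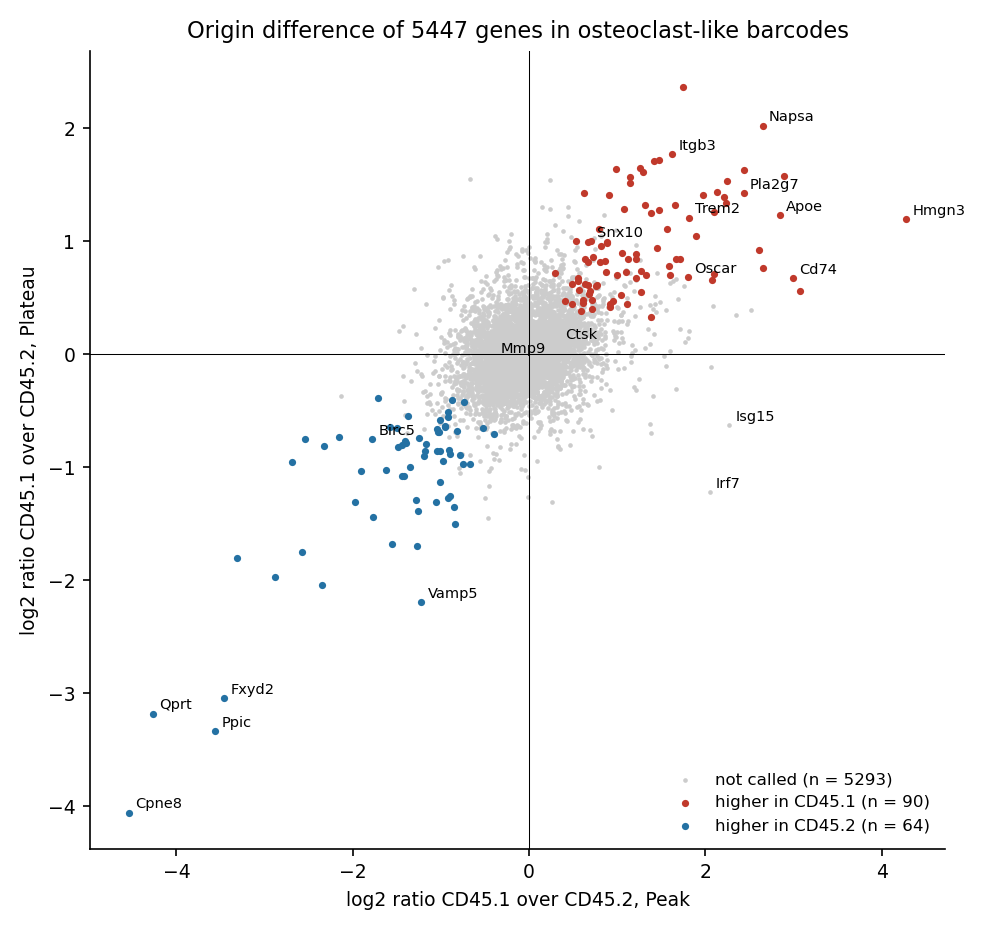
Log2 ratio of CD45.1 over CD45.2 at Peak (x axis) and at Plateau (y axis) for each of the 5447 genes tested in osteoclast-like barcodes. Colored points passed edgeR at an adjusted p of 0.05 (90 higher in CD45.1, 64 higher in CD45.2), gray points did not, and Isg15 and Irf7 sit apart at opposite signs.

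The largest gene differences were on the recipient side. CD45.2 osteoclast-like cells carried more Fxyd2, Cpne8, Ppic and Qprt in both libraries. Fxyd2, a small regulator of the sodium pump, stood at 49.2 CPM in CD45.1 and 541 in CD45.2 barcodes at Peak and at 26.6 and 220 at Plateau. No CD45.1 sum reached either CD45.2 sum. Its ratio of CD45.2 over CD45.1 was 11.0 at Peak (95% interval 9.37 to 13) and 8.27 at Plateau (6.97 to 9.83), and its fitted log2 ratio of CD45.1 over CD45.2 was -3.24 (SE 0.15, edgeR adjusted p = 4.8e-07). Fxyd2 lies on chromosome 9 at 45399709 to 45410278 (GRCm38). The barcode with most Fxyd2 gave 28% of the CD45.2 counts at Peak and 24% at Plateau.

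Cpne8, a copine that binds membranes in the presence of calcium, had 2.30 CPM in CD45.1 and 56.3 in CD45.2 barcodes at Peak and 4.89 and 82.0 at Plateau (log2 ratio -4.21, SE 0.26, edgeR adjusted p = 5.5e-06). Qprt, an enzyme of NAD synthesis from tryptophan, had 3.33 and 66.0 CPM at Peak and 6.05 and 55.1 at Plateau (log2 ratio -3.58, SE 0.28, edgeR adjusted p = 4.57e-05). Ppic, a cyclophilin, had 4.86 and 58.5 CPM at Peak and 5.93 and 60.3 at Plateau (log2 ratio -3.42, SE 0.24, edgeR adjusted p = 1.86e-05). All 3 were low in every CD45.1 sum and above 50 CPM in every CD45.2 sum. DESeq2 called all 4 of these genes. Without the library block Cpne8, Ppic and Qprt passed and Fxyd2 had an edgeR adjusted p of 0.052.

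Gja1, Pls3, Cavin3, Vamp5 and Ctsf also passed, higher in CD45.2, among the 15 genes named on the recipient side. Gja1, connexin 43 of gap junctions, had 21.0 CPM in CD45.1 and 82.5 in CD45.2 barcodes at Peak and 15.5 and 38.0 at Plateau. Pls3, an actin bundling protein, had 9.73 and 58.5 CPM at Peak and 11.5 and 38.7 at Plateau. Cavin3, a coat protein of caveolae, had 46.6 and 113 CPM at Peak and 39.8 and 129 at Plateau. Vamp5, a vesicle membrane protein, had 46.1 and 107 CPM at Peak and 53.0 and 243 at Plateau, and was the gene higher in CD45.2 that passed among barcodes with at least 4% Acp5 and Ctsk. Ctsf, a cysteine cathepsin, had 8.96 and 45.8 CPM at Peak and 12.4 and 51.1 at Plateau. Tmem267, Gas7, H2afx, Lima1, Gkap1 and Ttn were the other 6 of the 15 named on the recipient side, with fitted log2 ratios from -2.41 (Ttn) to -1.26 (Lima1). Of the Ttn counts in CD45.2 barcodes at Plateau 53% came from 1 barcode, and of H2afx 36.5% at Peak and 42.9% at Plateau. Among barcodes with at least 4% Acp5 and Ctsk, H2afx turned, with log2 ratios of CD45.1 over CD45.2 of 0.80 at Peak and 1.41 at Plateau, too low to be tested.

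**Figure D4:**
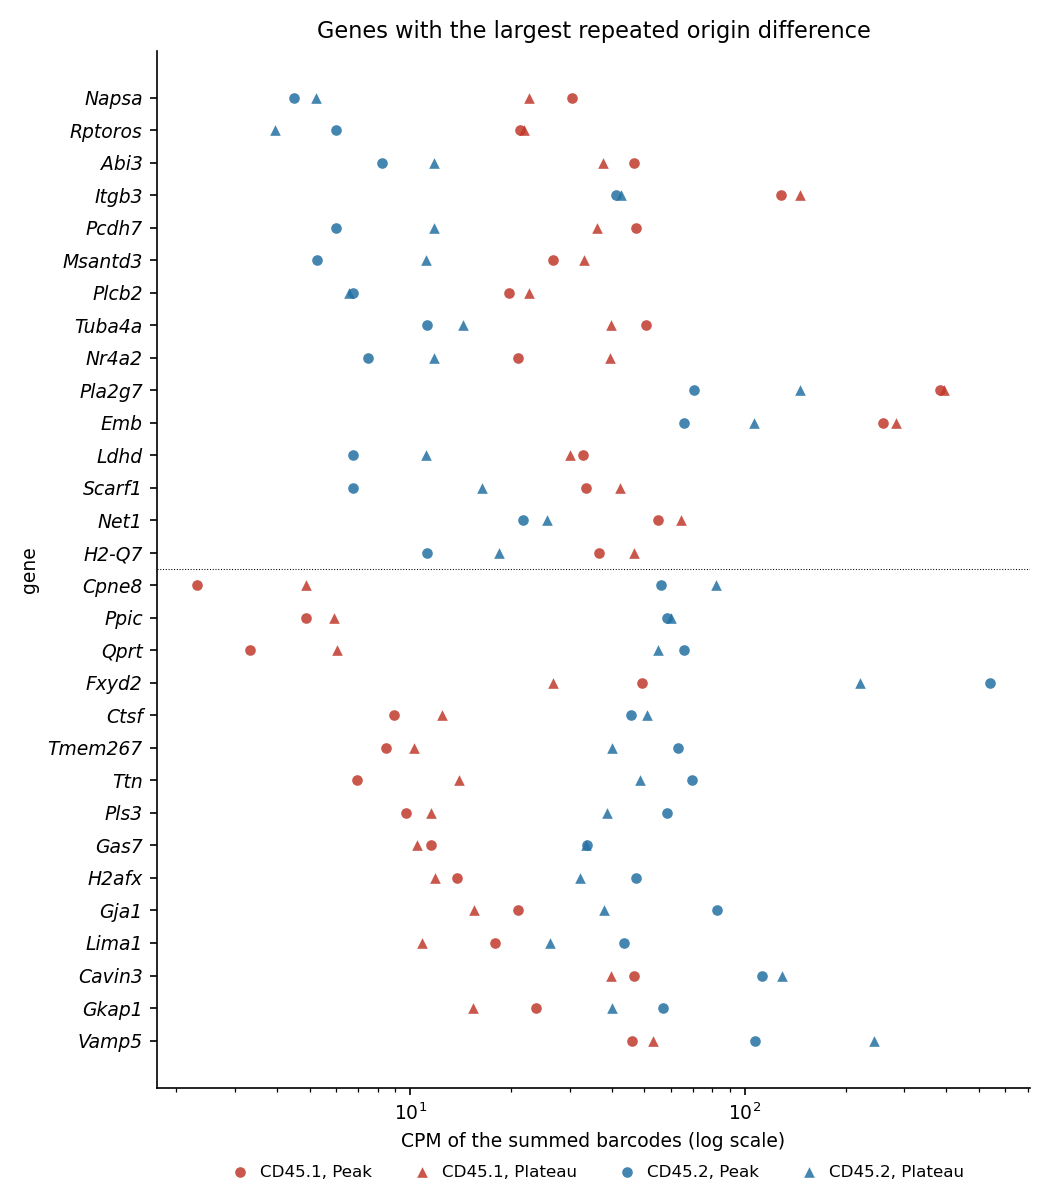
CPM (log axis) in the 4 sums of osteoclast-like barcodes for the 15 genes with the largest repeated ratio toward CD45.1 (above the dotted line) and the 15 toward CD45.2 (below it). Circles are Peak, triangles Plateau, red CD45.1 and blue CD45.2; in each gene the 2 red points lie on 1 side of the 2 blue points, which the choice of genes requires within each library.

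CD45.1 osteoclast-like cells had more Itgb3 RNA, the integrin beta-3 chain, at 129 CPM in CD45.1 and 41.3 in CD45.2 barcodes at Peak and 146 and 42.6 at Plateau. Both CD45.1 sums lay about equally far above both CD45.2 sums. The ratio was 3.12 at Peak (2.36 to 4.19) and 3.44 at Plateau (2.68 to 4.48), with a fitted log2 ratio of 1.73 (SE 0.16, edgeR adjusted p = 0.0002). Itgb3 lies on chromosome 11 at 104608000 to 104670476 (GRCm38). DESeq2 and the fit without the library block also called it, while among barcodes with at least 4% Acp5 and Ctsk it had a log2 ratio of 1.30 and an edgeR adjusted p of 0.095.

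Among the other 14 genes named on the donor side, Pla2g7, which codes for a lipoprotein-associated phospholipase, had 383 CPM in CD45.1 and 70.5 in CD45.2 barcodes at Peak and 393 and 146 at Plateau (log2 ratio 1.89, SE 0.21, edgeR adjusted p = 0.000596). Emb, an immunoglobulin-family adhesion protein, had 260 and 66.0 CPM at Peak and 284 and 107 at Plateau (log2 ratio 1.68, SE 0.17, edgeR adjusted p = 0.000311). Napsa, an aspartic protease, had 30.5 and 4.50 CPM at Peak and 22.6 and 5.24 at Plateau, with 83% and 50% of its CD45.2 counts from 1 barcode. The remaining 11, Rptoros, Abi3, Pcdh7, Msantd3, Plcb2, Tuba4a, Nr4a2, Ldhd, Scarf1, Net1 and H2-Q7, had fitted log2 ratios from 1.35 (Net1) to 2.19 (Pcdh7) and stood at 64.6 CPM or less in each of the 4 sums. With equal weight per barcode the log2 ratio of Pcdh7 was 3.09 at Peak and -0.69 at Plateau, and after thinning to 3000 UMIs that of Net1 was -0.25 and -0.13. The shallowest of the 42 CD45.2 barcodes at Plateau had 687 gene UMIs, so 1 UMI there can move an equal-weight mean of a low gene. This limit holds for every equal-weight ratio at Plateau given below. H2-Q7 belongs to a family of near-identical class I genes, so its reads may be shared with relatives.

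Some genes of osteoclast function passed, most of them higher in CD45.1. Of the 20 tested genes of acid secretion, 3 were higher in CD45.1 and 0 in CD45.2, beside the 1.65% and 1.17% of all genes. These were Snx10, a sorting nexin needed for osteoclast resorption (717 and 442 CPM at Peak, 889 and 445 at Plateau, log2 ratio 0.87, SE 0.11, edgeR adjusted p = 0.00182), Atp6v1e1, a subunit of the proton pump (1317 and 863 at Peak, 1205 and 880 at Plateau), and Atp6ap1, an accessory subunit (264 and 178, 289 and 195). The other 17 did not pass, among them the pump subunit Tcirg1 (464 and 392.3 CPM at Peak, 563 and 430 at Plateau) and Atp6v0c (7952 and 6261, 9193 and 8748). The median log2 ratio of the list was 0.21 at Peak and 0.10 at Plateau. Among barcodes with at least 4% Acp5 and Ctsk, Snx10 had a fitted log2 ratio of 0.26 and an edgeR adjusted p of 0.651.

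Of the 6 rule genes, Oscar, a receptor that gives a co-stimulating signal with FcR gamma, stood at 202.5 CPM in CD45.1 and 57.8 in CD45.2 barcodes at Peak and at 246 and 153 at Plateau. Ctsk, cathepsin K itself, stood at 29334 and 23225 CPM at Peak and 31286 and 29262 at Plateau. Both helped to choose the cells, so their values are a description. Per barcode with equal weight, the log2 ratio of Oscar was 1.07 at Peak and -0.02 at Plateau.

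Of the 15 tested genes of matrix degradation and the lysosome, 3 were higher in CD45.1 and 1 in CD45.2, beside 1.65% and 1.17% of all genes. The 3 were Hexa, a subunit of beta-hexosaminidase (760 and 449 CPM at Peak, 764 and 501.5 at Plateau, edgeR adjusted p = 0.00556), Ctsd, cathepsin D (565 and 369, 689 and 493), and Ctsz, cathepsin Z (989 and 742, 986 and 711). Lamp1, a lysosomal membrane protein, was higher in CD45.2 (54.3 and 102 CPM at Peak, 60.1 and 108 at Plateau, edgeR adjusted p = 0.00808). Mmp9, the main gelatinase of osteoclasts, did not pass, with 5057 CPM in CD45.1 and 6621 in CD45.2 barcodes at Peak and 7215 and 7352 at Plateau. Of the 15 tested genes of fusion and the sealing zone, 3 were higher in CD45.1 and 0 in CD45.2, beside the same shares of all genes. These were Itgb3, Trem2, a receptor that signals through Tyrobp (152 and 42.8 CPM at Peak, 91.5 and 39.3 at Plateau), and Rac2, a small GTPase of the actin ring (450.6 and 232, 435.5 and 315), whose log2 ratio after thinning was 0.75 at Peak and -0.07 at Plateau. Itgav, the alpha-v partner of Itgb3, had 241 and 387 CPM at Peak and 333 and 359 at Plateau and did not pass.

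The signaling that starts osteoclast formation was not called in either direction. None of 16 tested genes of RANK and NFATc1 signaling passed, nor of 6 tested inhibitors of differentiation, beside 2.83% of all genes. At that share, lists of this size can hold no called gene. The RANK gene Tnfrsf11a had 128 CPM in CD45.1 and 146 in CD45.2 barcodes at Peak and 162 and 151 at Plateau, the M-CSF receptor gene Csf1r 493 and 464 and then 496 and 423, and the transcription factor gene Nfatc1 399 and 346.5 and then 447 and 316. Of 6 tested coupling factors, signals from osteoclasts to bone-forming cells, 1 was higher in CD45.1, beside 1.65% of all genes. This was Spp1, osteopontin (828 and 673 CPM at Peak, 970 and 590 at Plateau, edgeR adjusted p = 0.0348). Among barcodes with at least 4% Acp5 and Ctsk its fitted log2 ratio was 0.06, with -0.23 at Peak alone.

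Genes of other myeloid states differed in both directions. Apoe, a lipid carrier of macrophages, had 548 CPM in CD45.1 and 75.8 in CD45.2 barcodes at Peak and 412 and 175 at Plateau (log2 ratio 1.98, SE 0.28, edgeR adjusted p = 0.00294, DESeq2 adjusted p = 0.348). With Trem2 and Fxyd2 it made up the 3 tested genes of the tissue macrophage list. Of these, 2 were higher in CD45.1 and 1 in CD45.2, beside 1.65% and 1.17% of all genes. In the other kept barcodes Apoe had 2283 CPM in CD45.1 and 997 in CD45.2 at Peak and 2793 and 589 at Plateau. Folr2, which codes for folate receptor beta, was too low to be tested, at 6.40 and 36.0 CPM at Peak and 9.19 and 30.8 at Plateau.

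Of 4 tested MHC class II genes, 3 were higher in CD45.1, beside 1.65% of all genes. These were Cd74, the invariant chain (295 and 36.8 CPM at Peak, 111 and 69.5 at Plateau, edgeR adjusted p = 0.027), H2-Aa (72.5 and 8.25, 19.8 and 13.1) and H2-DMb1 (69.1 and 22.5, 57.8 and 35.4). MHC class II was one of the gates of the sort, yet the list summed to 7892 CPM in the other CD45.1 barcodes at Peak and 2344 in the other CD45.2 barcodes. At Plateau 77% of the Cd74 and 70% of the H2-Aa counts in CD45.2 barcodes came from 1 barcode, and DESeq2 gave Cd74 an adjusted p of 1.00. Without barcodes carrying both CD45 antibodies, the log2 ratio of Cd74 was 3.17 at Peak and 2.71 at Plateau. With equal weight per barcode the Plateau log2 ratios were -0.0087 for Cd74 and -1.53 for H2-Aa, and after thinning that of H2-DMb1 was -0.17. Lyz2, lysozyme, was the 1 gene of 5 tested classical monocyte genes that passed, beside 2.83% of all genes (204 and 133 CPM at Peak, 212 and 78.7 at Plateau, edgeR adjusted p = 0.00759). With equal weight its log2 ratio was 0.15 at Peak and -0.081 at Plateau.

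Among cell cycle and inflammatory genes, those that passed were higher in CD45.2. Of 8 tested cell cycle genes 4 passed, beside 1.17% of all genes higher in CD45.2. These were Birc5 (29.4 and 101 CPM at Peak, 20.4 and 34.1 at Plateau), Stmn1 (43.8 and 87.8, 37.5 and 82.0), Tyms (12.3 and 25.5, 11.7 and 28.8) and Ccnb2 (26.6 and 63.0, 14.7 and 24.3). They code for a spindle-associated survival protein, a tubulin regulator, thymidylate synthase and cyclin B2. None passed in the other direction. Of the Birc5 counts in CD45.2 barcodes, 36% at Peak and 35% at Plateau came from 1 barcode. Among barcodes with at least 4% Acp5 and Ctsk, the Plateau log2 ratios of Birc5, Stmn1 and Ccnb2 turned, to 2.31, 0.93 and 0.28. Arg1, arginase, and Ccl6, a chemokine, passed among 5 tested inflammatory genes, beside the same 1.17% of all genes. Of the Ccl6 counts in CD45.2 barcodes 86.5% at Peak and 62.7% at Plateau came from 1 barcode. When barcodes with both CD45 antibodies were left out, its log2 ratios were 0.26 and 1.15, and those of Arg1 were -0.71 and 0.18.

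Interferon response genes had ratios of opposite sign in the 2 libraries for several members. The median log2 ratio of the 10 tested genes was 0.84 at Peak and -0.46 at Plateau. Isg15, a ubiquitin-like modifier induced by interferon, had 254.5 CPM in CD45.1 and 52.5 in CD45.2 barcodes at Peak and 72.7 and 112 at Plateau. Irf7, a transcription factor of the same response, had 38.7 and 9.0 CPM at Peak and 16.4 and 38.0 at Plateau, with 67% and 48% of its CD45.2 counts from 1 barcode. Opposite signs with both 95% intervals excluding a ratio of 1 were found for 6 of the 10 and for 87 of all 5447 genes (1.60%). Among barcodes with at least 4% Acp5 and Ctsk the log2 ratios were 1.97 and 0.59 for Isg15 and -0.37 and -0.25 for Ifitm3, without a change of sign, and 0.37 and -0.29 for Irf7. The difference between the libraries was not tested. Only Rtp4 of the 10, a chaperone that interferon also induces, passed the test by origin, beside 2.83% of all genes (128 and 60.0 CPM at Peak, 126 and 51.1 at Plateau, edgeR adjusted p = 0.00169).

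Genes of energy use were not called. None of 16 tested genes of glycolysis and hypoxia, of 22 of oxidative phosphorylation and of 9 of iron and haem passed, beside 2.83% of all genes. At that share, lists of these sizes can hold no called gene. Of 12 tested genes that respond to tissue dissociation only Egr1, an immediate-early factor, passed, higher in CD45.2 (32.3 and 55.5 CPM at Peak, 53.4 and 99.0 at Plateau), beside 1.17% of all genes. Of the sex-linked genes only Xist was tested, at 224 and 311 CPM at Peak and 253 and 271 at Plateau, and the 4 Y-linked genes listed gave 1 UMI in the 4 sums together. Around Ptprc, the gene that codes for CD45 (chromosome 1 at 138062859 to 138175756, GRCm38), the CD45.1 and CD45.2 mice differ by design. Of 72 tested genes within 20 Mb of it 2 were called, Atp2b4 and Rgs2, which is 2.78% beside 2.83% of all genes. Ptprc itself had 114 and 139 CPM at Peak and 125 and 110 at Plateau.

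To ask whether these differences were those of the other sorted cells, the origin ratio in osteoclast-like barcodes was compared with that in the other kept barcodes by an interaction term in edgeR. Of 4970 genes tested, 693 (13.9%) passed, with the ratio of CD45.1 over CD45.2 higher in osteoclast-like barcodes for 386 (7.77%) and lower for 307 (6.18%). The 3 rule genes among them chose the cells and are no finding. The other CD45.2 barcodes were a different mix of cells from the other CD45.1 barcodes, with 8192 and 1695 CPM of fibroblast genes at Peak and 1615 and 19.4 CPM of mast cell and basophil genes. They also held more osteoclast RNA below the threshold. The 6 rule genes summed to 4617 CPM in other CD45.2 and 518 in other CD45.1 barcodes at Peak, and to 5221 and 1898 at Plateau. The part of that mix in the interaction was not tested. Of the 64 genes higher in CD45.2 osteoclast-like barcodes, 54 (84.4%) also had the higher value in CD45.2 among other barcodes in both libraries, beside 56.7% of all 5447 genes, and 22 of the 45 that could be tested passed the interaction. Of the 90 higher in CD45.1, 51 (56.7%) had the same direction in other barcodes in both libraries, beside 27.4% of all genes, and 27 the opposite one, and 28 of 73 passed. The rule gene Oscar is counted in the 90.

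For Fxyd2 the other barcodes had 17.2 CPM in CD45.1 and 601 in CD45.2 at Peak and 71.1 and 781 at Plateau, and the interaction did not pass (log2 difference 0.92, edgeR adjusted p = 0.138). Cpne8 in other barcodes had 4.66 and 61.3 CPM at Peak and 6.30 and 65.0 at Plateau, and was too low for the interaction. Itgb3 was low in all other barcodes, at 1.93 and 4.68 CPM at Peak and 7.30 and 14.6 at Plateau, and was also not tested there. Tuba4a (log2 difference 1.24), Net1 (1.05) and Snx10 (0.87) passed with a ratio further toward CD45.1 in osteoclast-like barcodes. Lamp1 (-1.02), H2afx (-1.51) and Gas7 (-1.37) passed with a ratio further toward CD45.2.

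The surface proteins showed the integrin in the same direction as its RNA. CD61, the antibody to integrin beta-3, made up 41.8% of antibody UMIs other than CD45.1 and CD45.2 in CD45.1 barcodes and 9.73% in CD45.2 barcodes at Peak, and 49.8% and 23.3% at Plateau. Per barcode it gave 407 and 68.3 UMIs on average at Peak and 645 and 201 at Plateau. Both CD45.1 values exceeded both CD45.2 values. A share depends on CD61, which is a large part of the total, so mean UMIs per barcode are given for the other antibodies. FrB, the antibody to folate receptor beta, gave 3.27 UMIs per barcode in CD45.1 and 41.4 in CD45.2 at Peak and 4.62 and 20.05 at Plateau. CD71, the transferrin receptor, gave 67.6 and 194 at Peak and 75.6 and 153 at Plateau, while its RNA Tfrc had 161 and 261 CPM at Peak and 196 and 174 at Plateau. CD163, a haemoglobin scavenger receptor, gave 5.45 and 16.4 at Peak and 3.60 and 6.71 at Plateau. Its RNA Cd163 was too low to be tested, at 0.256 and 0 CPM at Peak and 0.233 and 0 at Plateau. CD107a, which is Lamp1, gave 2.65 and 5.03 UMIs per barcode at Peak and 1.79 and 2.43 at Plateau. The MHC class II antibody I-A-I-E gave 30.9 and 8.03 at Peak and 23.0 and 10.1 at Plateau.

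None of the 32 antibodies tested (0.0%) passed edgeR after Benjamini-Hochberg adjustment. The smallest adjusted p was 0.139, shared by CD274, CD71, CD163, FrB, CD61 and CD88_C5AR, and 8 (25%) had an unadjusted p under 0.05. DESeq2 was not run on the antibodies. CD61 had a log2 ratio of 2.09 (SE 0.40) and FrB of -2.93 (SE 0.52). The share in both libraries was 1.5-fold apart in the same direction for 11 (34.4%). CD115, the M-CSF receptor, was 49.7 and 10.8 UMIs per barcode at Peak and 36.2 and 34.0 at Plateau, and its RNA Csf1r had 493 and 464 CPM at Peak and 496 and 423 at Plateau.

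**Figure D5:**
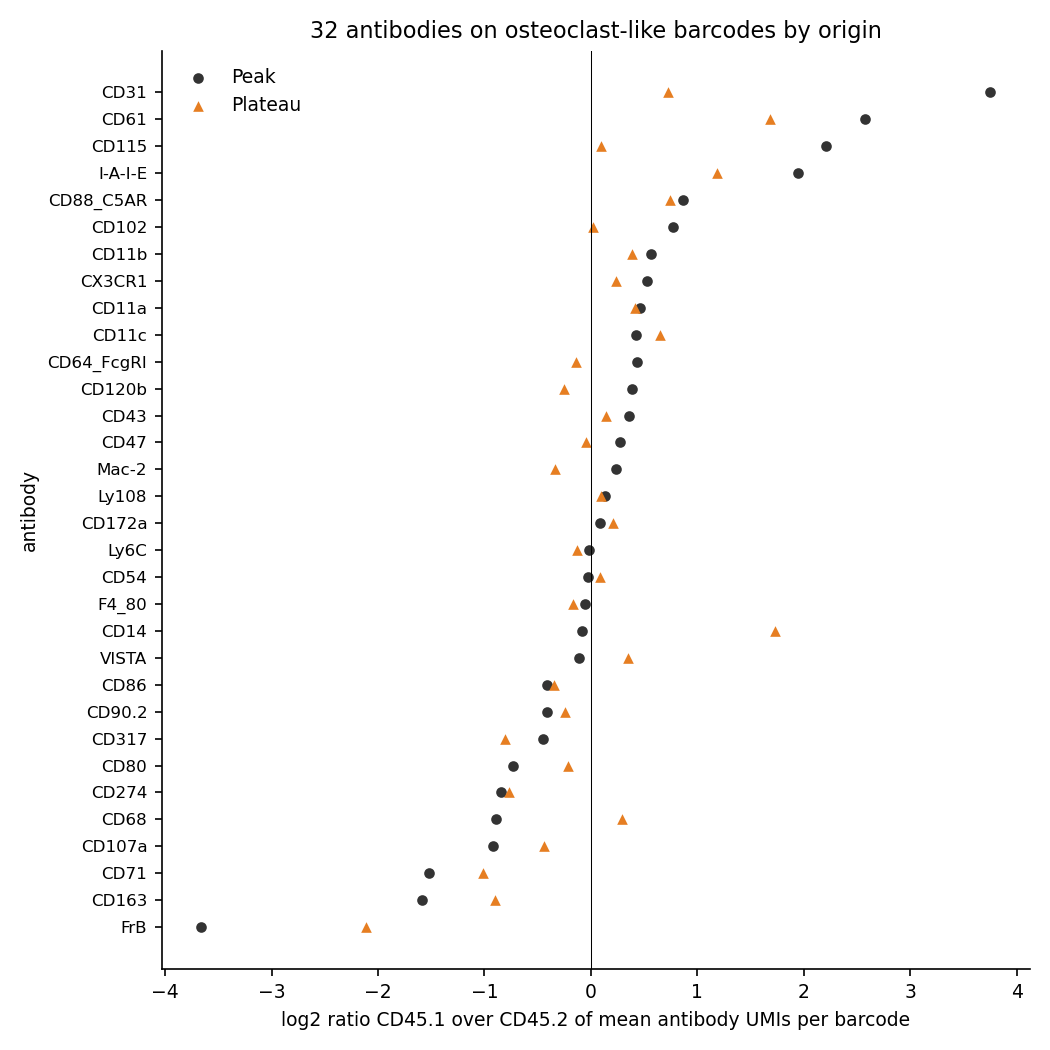
Log2 ratio of CD45.1 over CD45.2 of the mean UMIs per osteoclast-like barcode for the 32 antibodies tested, at Peak (circles) and Plateau (triangles). CD61 lies to the right at 2.57 and 1.68, FrB to the left at -3.66 and -2.12, and antibodies such as CD115 and CD14 differ between the 2 libraries.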

How the data were processed

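The deposited matrices hold raw UMI counts for 32285 genes and 92 antibodies per barcode. Cell Ranger 6.1.2, Seurat 4.4.0 and the mm10 build are named, with no order, per the submitters' processing notes. No doublet caller was run. The cells, gene lists and tests were chosen with earlier results of these data known.

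UMI counts were summed per library and origin and tested with edgeR 4.0.16 (quasi-likelihood, TMM, library as a block, 1 residual degree of freedom; 2 for the interaction over 8 sums) in R 4.3.3. A gene was tested with at least 20 expected counts in the smaller sum of each library. Ratios within a library use CPM with 0.5 counts added and exact 95% intervals. Both origins come from the same library, which is where the pairing comes from. On simulated sums with 195 genes changed 2-fold among 5323, the origin fit recovered 89.2% with 10 false calls, and the interaction fit recovered 68.1% of 191. The simulation gave every gene the same spread and the same change in both libraries, and no barcode a large part of the counts. Its rates therefore do not give the error of the reported calls, where ratios differed by stage and single barcodes held large parts.

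Named genes had the same direction in both libraries with both intervals excluding 1: the 15 highest and 15 lowest by the smaller absolute log2 ratio, without mitochondrial, ribosomal, rule and unnamed genes, plus from each list the member with the largest ratio and the highest mean. Other list members and genes were named after their values were seen, and the values of 2 list members are not reported here. Positions are from RefSeq GRCm38.p6 by symbol, found for 5375 of 5447 genes. Alternatives covered scaling, filter, block, DESeq2 1.42.0 and the thresholds for cells and origin.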

Additional observations from a re-analysis of the deposited data

Results flagged for a closer look

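The origin ratio (log2, CD45.1 over CD45.2) differed between osteoclast-like and other kept barcodes by the interaction test for 16 of the genes picked by the naming rule. It was higher in osteoclast-like barcodes for Mmp9 (2.88), Gja1 (1.38), Tuba4a (1.24), H2-Q7 (1.23), Cavin3 (1.08), Net1 (1.05), Jdp2 (0.94) and Snx10 (0.87). It was lower for Ccl6 (-3.60), Ifitm3 (-1.91), H2afx (-1.51), Gas7 (-1.37), Vegfa (-1.35), Lamp1 (-1.02), Tyrobp (-0.85) and Fth1 (-0.64). The other CD45.2 barcodes held more RNA of the rule genes than the other CD45.1 barcodes, and the part of this was not tested.

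Opposite signs at Peak and Plateau, with both counting intervals excluding no difference, were found for 15 genes of the lists outside the rule, of which 14 are given. The difference between the stages was not tested. The log2 ratio at Peak and then at Plateau was 2.27 and -0.63 for Isg15, 2.05 and -1.22 for Irf7, 0.94 and -0.49 for Xaf1, 0.32 and -0.75 for Bst2 and 0.28 and -0.68 for Ifitm3, all interferon response genes. It was 1.39 and -0.70 for Il1b, 1.38 and -0.62 for Dusp1, 0.92 and -0.32 for Car2, 0.72 and -0.72 for Plac8, 0.63 and -0.20 for Ctss and -0.36 and 0.40 for Ctsl. It was 0.34 and -0.11 for Cox6a1, 0.17 and -0.16 for Uqcrc2 and 0.084 and -0.11 for Cox7a2.

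The Resolution library, taken on day 56 and used in no comparison, held 20 osteoclast-like barcodes, 0.434% of 4611 kept, while Baseline held 0 of 1071. Baseline differs from the other libraries in stage and in lacking the "Clo-lip" tag, and these cannot be told apart. At Baseline 0 of 808 CD45.1 and 0 of 190 CD45.2 barcodes were osteoclast-like, with exact upper limits of 0.456% and 1.92% for counting error.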

How the results depend on the processing

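With total UMIs in place of TMM, 199 genes were higher in CD45.1 and 131 in CD45.2, and these hold all 90 and 64 of the reported calls. Without the low-count filter 312 and 280 passed. Without the replicate block for the library, 5 and 9 passed. DESeq2 called 31 and 20. With at least 10 CD45 antibody UMIs 140 were higher in CD45.1, and with at least 1000 genes 153. With Acp5 and Ctsk at 4% or more 2 and 1 passed, and at 2 to 4% 36 were higher in CD45.2. For the interaction, the ratio lower in osteoclast-like barcodes was called for 172 genes with total UMIs and 721 with no filter. Antibodies passing, higher and lower in CD45.1, were 6 and 3 with no filter, 1 and 2 at an origin log2 ratio of at least 2, 4 and 5 with at least 10 CD45 antibody UMIs, 7 and 1 without barcodes carrying both, 4 and 5 at 5% mitochondrial or less, and 3 and 2 at 2 to 4% Acp5 and Ctsk. Genes 1.5-fold apart in both libraries were 38 and 8 at 4% or more, 40 toward CD45.2 at 2 to 4%, and 12 and 5 after thinning to 3000 UMIs per barcode, with 675 genes tested. Of the osteoclast-like barcodes with an origin at Peak, CD45.1 made up 78.2% by the main rule, 89.3% at 4% or more and 68.9% at 2 to 4%. Fitted ratios changed sign, for genes not called, for Cox4i1 (-0.071), Fth1 (-0.087), S100a4 (-0.11) and Jdp2 (0.23) at 4% or more, H2afz (-0.029) without barcodes carrying both antibodies and Fos (-0.14) at 2 to 4%. Ratios within a library turned in both libraries for the called genes H2afx (0.80 and 1.41 at 4% or more), Ccl6 (0.26 and 1.15 without barcodes carrying both antibodies) and Net1 (-0.25 and -0.13 after thinning). In 1 library they turned for Oscar, Pcdh7, Snx10, Rac2, Spp1, Cd74, H2-Aa, H2-DMb1, Lyz2, Birc5, Stmn1, Ccnb2, Arg1 and Ccl6 under 1 or more of equal weight, thinning, 4% or more, or both antibodies left out. Leaving out a library leaves no residual degree of freedom, so the ratios within each library stand in its place.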

Other observations

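Further lysosomal enzymes outside the lists were among the 90 genes higher in CD45.1 osteoclast-like cells, and were picked after their values were seen. Gm2a, the activator protein for ganglioside breakdown, had 477 CPM in CD45.1 and 145 in CD45.2 barcodes at Peak and 409 and 228 at Plateau (edgeR adjusted p = 0.00317). Glb1, beta-galactosidase, had 157 and 51.8 CPM at Peak and 185 and 108 at Plateau. Arsb, arylsulfatase B, had 345 and 208.5 CPM at Peak and 508 and 280 at Plateau. Gla, alpha-galactosidase, and Naglu, which breaks down heparan sulfate, were also called, with log2 ratios of 0.82 and 0.78. Cyba, a subunit of the phagocyte oxidase, had 1002 and 382.5 CPM at Peak and 1033 and 435 at Plateau (log2 ratio 1.33, edgeR adjusted p = 7.82e-05).

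At Resolution, 13 osteoclast-like barcodes were CD45.1, 3 were CD45.2 and 4 lay between. The median depth of the 13 was 16408 gene UMIs and of the 3 was 13835.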
